A study of Auxenochlorella pyrenoidosa with 12 samples.

Results

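This comparison sets the highest dose of potassium peroxymonosulfate against the lowest in Auxenochlorella pyrenoidosa, a unicellular green alga also called Chlorella pyrenoidosa. It uses 3 libraries at 0.5 EC50 (8.49 mg/L) and 3 libraries at 0.1 EC50 (1.70 mg/L), which are 6 of the 12 libraries in the series. EC50 is the concentration that has a median effect, here over 96 h of exposure. Every contig whose FPKM averaged 1 or more across these 6 libraries was taken, which gave 17126 of 29140 contigs. FPKM is a level scaled to contig length and library total, and a contig is a transcript sequence assembled from the reads. The other 6 libraries, 3 at 0.2 EC50 (3.40 mg/L) and 3 unexposed controls, did not enter the choice or the test. All RNA was labelled as total RNA of whole cells, and none of the sources used here gives the day of harvest within the 12-day exposure. The labels do not state whether libraries of a dose are separate cultures, so p-values measure the spread between these libraries, which may be technical.

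Peroxymonosulfate is a strong oxidant used to treat water, and it can give rise to sulfate and hydroxyl radicals. Green algae meet oxidants with catalase, peroxidases and the ascorbate and glutathione cycle, and the chloroplast is a main site where reactive oxygen species form in light. The deposited table gives contig identifiers without gene names, so the genes behind these levels are not named here, and the labelled alga was not checked against marker genes. In bulk libraries such as these, fewer cells of a kind and less RNA per cell cannot be told apart.

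The libraries differed in how many contigs they showed. At 0.5 EC50, 18350 ± 170 contigs reached 1 FPKM, against 15735 ± 996 at 0.1 EC50 (SD, n = 3 each). The groups did not overlap, and an exact two-sided permutation test gave p = 0.1, the smallest that 3 against 3 libraries allow. After median-of-ratios scaling, which sets the typical contig equal between libraries, the difference shrank to 944 contigs, against 2616 as deposited, with an exact permutation p = 0.3. Between 2265 and 2510 contigs were listed at 0 in the 0.5 EC50 libraries, against 2874 to 3367 at 0.1 EC50. The read depth of the libraries is unknown, and its part in the results was not tested. Ratios of low values put 0.1 EC50 replicates 2 and 3 apart from the other 4 libraries of the comparison. In ratios with the 8 libraries of the largest set, the fullest narrow class held 1.52% to 2.49% of low-value contigs for libraries of that set and 0.758% to 1.21% for the other 4 libraries of the series. That largest set holds all 3 libraries of 0.5 EC50 and only replicate 1 of 0.1 EC50, so results are also given within it.

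The contig with the largest rise by the naming rule was TRINITY_DN18466_c0_g1_i1_3. It had 62.9, 66.3 and 53.7 FPKM at 0.5 EC50, against 3.33, 1.92 and 3.27 FPKM at 0.1 EC50. All 3 libraries of the higher dose stood far above all 3 of the lower dose. The ratio of mean levels was 21.4, and the difference was 4.03 ± 0.185 on the log2(FPKM + 1) scale (SE; limma, adjusted p = 0.000606). In the libraries that took no part in the choice, it had 10.2, 5.19 and 12.5 FPKM at 0.2 EC50 and 1.29, 1.12 and 1.77 FPKM in the controls. Those groups did not overlap either, and the 0.2 EC50 level was higher than control by 2.04 ± 0.302 (SE; limma, adjusted p = 0.017).

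TRINITY_DN13892_c0_g1_i1_2 reached 305, 315 and 215 FPKM at 0.5 EC50, against 22.5, 12.9 and 20.1 FPKM at 0.1 EC50. The ratio of mean levels was 15.1, with a log2 difference of 3.86 ± 0.233 (SE; limma, adjusted p = 0.00111). This contig had 53.9, 23.5 and 68.9 FPKM at 0.2 EC50 and 9.55, 4.70 and 9.16 FPKM in the controls. Every 0.2 EC50 library lay above every control, by a log2 difference of 2.42 ± 0.434 (SE; limma, adjusted p = 0.0262). Both contigs passed the threshold under each of the 13 alternatives run for named contigs.

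The 2 contigs with the largest falls were less even. TRINITY_DN1513_c0_g1_i1_1 had 0.187, 2.21 and 1.76 FPKM at 0.5 EC50, against 8.30, 21.6 and 4.72 FPKM at 0.1 EC50. The groups did not overlap, and replicate 2 of 0.1 EC50 stood above the other libraries of its group. The log2 difference was -2.28 ± 0.564 (SE; limma, adjusted p = 0.0416), and the call was lost under 7 of 13 alternatives, with differences there between -1.74 and -3.16. At 0.2 EC50 it had 4.65, 3.26 and 1.90 FPKM and in the controls 0, 5.48 and 1.20 FPKM, which overlap.

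TRINITY_DN12187_c0_g1_i1_1 was listed at 0, 1.12 and 0 FPKM at 0.5 EC50, against 2.47, 10.5 and 4.92 FPKM at 0.1 EC50. Each 0.1 EC50 library was above each 0.5 EC50 library, and the log2 difference was -2.27 ± 0.490 (SE; limma, adjusted p = 0.0298). It was listed at 2.06, 0 and 0 FPKM at 0.2 EC50 and at 0.640, 0 and 0 FPKM in the controls. The 0.1 EC50 libraries were thus the highest of the 4 groups, and the call was lost under 6 of 13 alternatives. In the 5 of these that left out a single library the log2 difference stayed between -2.63 and -1.82, and with low-value steps as a batch term it was -1.43.

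**Figure D1:**
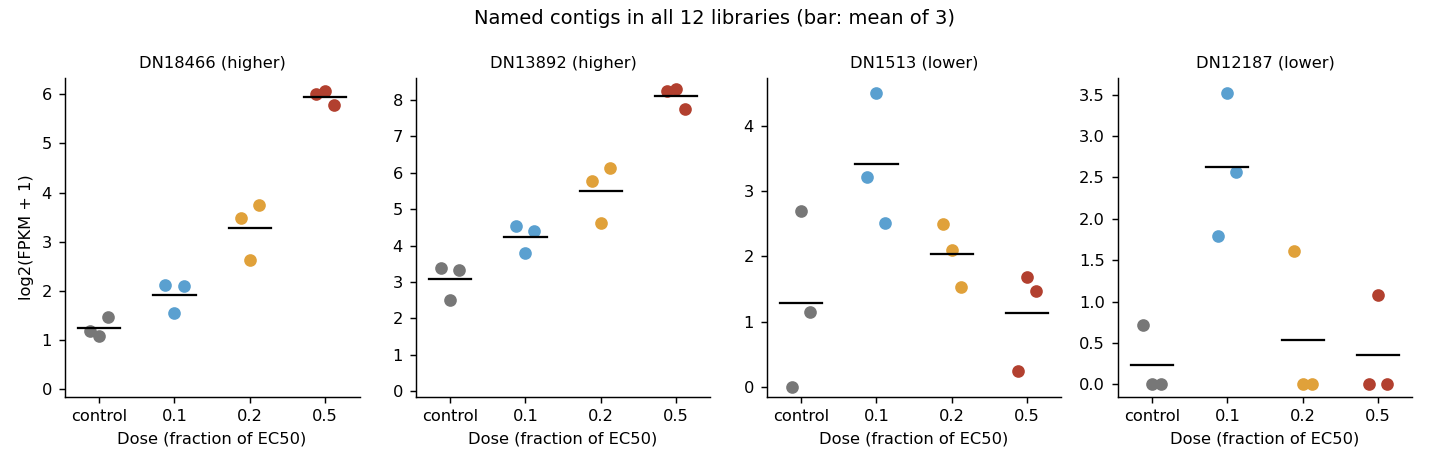
Levels of the 4 named contigs as log2(FPKM + 1) in all 12 libraries by dose, with 1 point per library and a bar at the mean of 3. The 2 contigs that were higher at 0.5 than at 0.1 EC50 climb from control through 0.2 EC50, and the 2 that were lower peak at 0.1 EC50.

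The contigs that ranked after these by the same rule had smaller differences. The next 6 rises had log2 differences of 3.06 to 3.63, with mean levels of 14.8 to 78.0 FPKM at 0.5 EC50, against 0.658 to 8.47 FPKM at 0.1 EC50. In all 6 the 0.2 EC50 mean lay between those of the other doses, and in 5 of the 6 the control mean was below that of 0.1 EC50. The next 6 falls had log2 differences of -1.91 to -1.64 and mean levels of 0.513 to 9.25 FPKM at 0.5 EC50, against 5.41 to 34.5 FPKM at 0.1 EC50. In all 6 the 0.2 EC50 mean FPKM lay between those of the other doses, and in 5 of the 6 the control mean was below that of 0.1 EC50. The fall of rank 4 had 9.248 FPKM at 0.2 EC50, against 9.246 FPKM at 0.5 EC50. Such orders of mean FPKM can differ from those on the log2(FPKM + 1) scale. The largest difference of any contig did not pass the threshold. That contig had 428, 41.7 and 855 FPKM at 0.5 EC50, against 3.19, 48.4 and 4.20 FPKM at 0.1 EC50, so the groups overlapped (log2 difference 4.61 ± 1.31, SE; limma, adjusted p = 0.0577).

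Over all contigs tested, 2427 or 14.2% differed between the doses at an adjusted p under 0.05 in limma's moderated test, and these are the contigs called below. At 0.5 EC50, 2133 contigs were higher (12.5%) and 294 were lower (1.72%). A change of at least 2-fold on the log2(FPKM + 1) scale was reached by 1012 of those that rose and 94 of those that fell. The median log2 difference was 0.97 among the contigs called higher and -0.79 among those called lower, and 31 rises and 3 falls were at least 4-fold on that scale (a log2 difference of 2). In all 2427 called contigs the libraries of the 2 doses did not overlap. Among all 17126 contigs, 6807 had no overlap, 5785 of them higher and 1022 lower at 0.5 EC50.

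The count rested on few libraries and moved with the library left out. It was 393 without 0.5 EC50 replicate 2, 249 without 0.5 EC50 replicate 3, 543 without 0.1 EC50 replicate 2 and 916 without 0.1 EC50 replicate 3. The number called lower was 18, 17, 58 and 62 without the same 4 libraries in that order. Without 0.5 EC50 replicate 1, 1808 were called, 192 of them lower. Without 0.1 EC50 replicate 1, 2177 were called, 318 of them lower. Each of these fits had 3 residual degrees of freedom, against 4 with all 6 libraries. Within the largest set of libraries with shared low-value steps, 42 contigs were called higher and 9 lower, with a single 0.1 EC50 library taken to vary as the other libraries do. The sizes changed less than the counts. Against 0.1 EC50 replicate 1 alone, the contigs called higher had a median log2 difference of 0.87, and against replicates 2 and 3 the median was 0.99. For the contigs called lower these medians were -0.69 and -0.83. All 6 libraries of the comparison chose these contigs, so the medians are a description.

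The bulk of contigs lay higher at 0.5 EC50, called or not. The median log2 difference over all contigs was 0.26, and 72.2% of contigs had a difference above 0. Each of the 9 pairs of a 0.5 EC50 and a 0.1 EC50 library gave a median between 0.22 and 0.32. For pairs of libraries within a group, the median was at most 0.0486 in size at 0.5 EC50 and 0.0742 at 0.1 EC50. Outside the comparison it reached 0.123 at 0.2 EC50 and 0.14 in the controls. Median-of-ratios scaling moved the median to 0.01 and gave 857 contigs higher and 940 lower. After quantile normalization 598 were higher and 467 lower with a median of -0.01, and an equal total in every library gave 1705 and 277 with a median of 0.25. Relative to the median of all contigs as deposited, all 2133 contigs called higher lay above it, 544 of them by at least 1 on the log2 scale, and 160 of the 294 called lower lay at least 1 below it. Calls in the same direction under all 4 scalings, a set added after the values were seen, numbered 524 rises and 242 falls.

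The shift depended on the level of a contig. Contigs with a mean of 1 to 2 FPKM had a median log2 difference of 0.35, those of 10 to 50 FPKM 0.14, and the 333 contigs of 200 FPKM or more -0.08. After median-of-ratios scaling the medians were 0.17 in the first class and -0.40 in the last. Contigs called higher were most frequent at 5 to 10 FPKM, where 17.6% were called higher and 0.959% lower. In the class of 50 to 200 FPKM the shares were 8.43% higher and 5.41% lower, and after median-of-ratios scaling 2.89% and 23.4%. The direction of most calls among abundant contigs therefore turned with the scaling. The median of the mean levels was 5.03 FPKM for contigs called higher, 16.4 FPKM for those called lower and 3.78 FPKM for all tested.

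**Figure D2:**
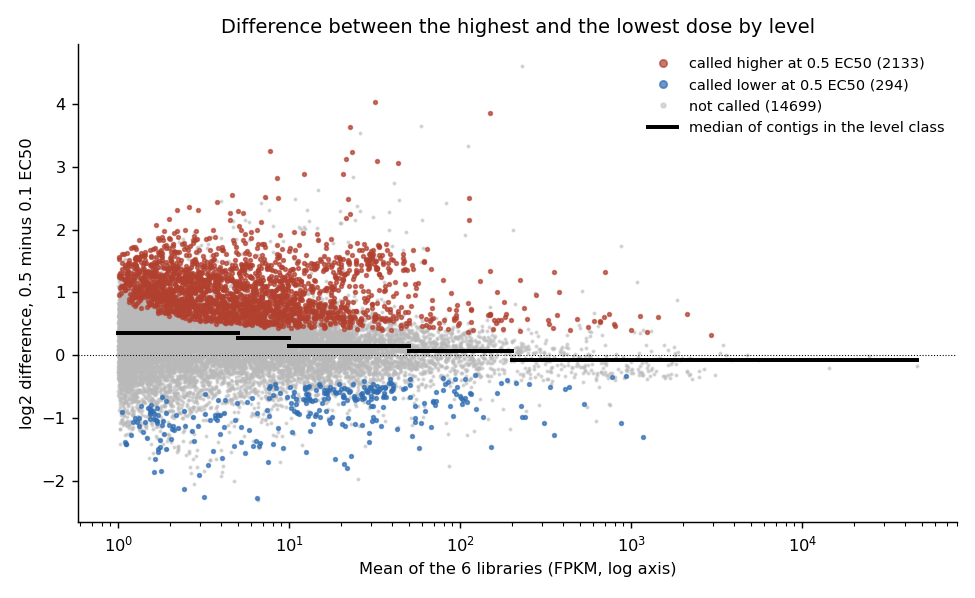
Log2 difference between 0.5 and 0.1 EC50 (vertical) against the mean FPKM over the 6 libraries (horizontal, log axis), with 1 point per contig. The black lines, medians of each level class, step down from 0.35 at 1 to 2 FPKM to -0.08 at 200 FPKM or more.

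**Figure D3:**
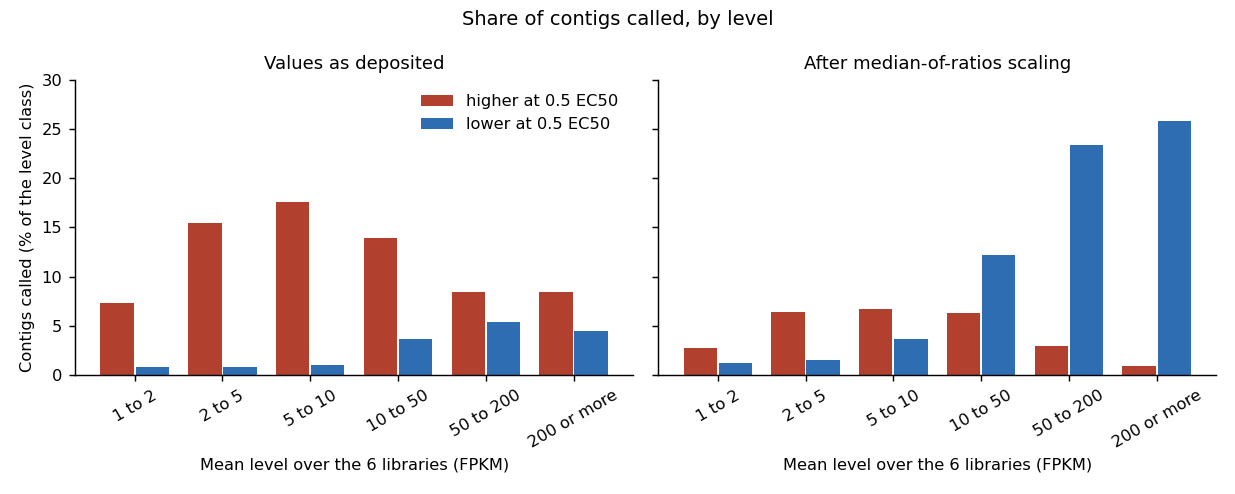
Share of contigs called higher or lower at 0.5 EC50 (% of each level class) by mean FPKM, for values as deposited (left) and after median-of-ratios scaling (right). Calls toward higher levels lead in every class on the left, while on the right calls toward lower levels lead from 10 FPKM upward.

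As deposited, calls among the most abundant contigs were no more frequent than the 14.2% of all contigs. Their direction turned under median-of-ratios scaling only. Of the 333 contigs of 200 FPKM or more, 8.41% were called higher and 4.50% lower as deposited, and 0.901% and 25.8% after median-of-ratios scaling. Of the 100 with the highest mean level, 7 were called higher and 3 lower as deposited. Of the first 20, 1 was called, at 3311, 3170 and 3278 FPKM at 0.5 EC50 against 2622, 2668 and 2570 FPKM at 0.1 EC50. The libraries of each dose stood close together there, and the log2 difference was 0.31 ± 0.0805 (SE; limma, adjusted p = 0.0461), a call that was not made under all 4 scalings. The most abundant contig of all had 40700, 44508 and 47877 FPKM at 0.5 EC50, against 46544, 54770 and 49019 FPKM at 0.1 EC50, with overlapping groups. Its log2 difference of -0.18 ± 0.113 did not pass the threshold (SE; limma, adjusted p = 0.311). The 333 contigs of 200 FPKM or more together held 59.5% to 62.2% of the summed FPKM at 0.5 EC50, against 63.9% to 67.2% at 0.1 EC50, without overlap.

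Some abundant contigs were called in the same direction under all 4 scalings. The most abundant of those that rose had 836, 1114 and 1070 FPKM at 0.5 EC50, against 449, 400 and 357 FPKM at 0.1 EC50 (log2 difference 1.32 ± 0.143, SE; limma, adjusted p = 0.00592). It stood at 360, 408 and 453 FPKM at 0.2 EC50 and at 955, 1040 and 921 FPKM in the controls. Its levels at 0.5 EC50 thus overlapped those of the controls, and those at 0.1 EC50 overlapped those at 0.2 EC50. The next in rank that rose had 561, 502 and 440 FPKM at 0.5 EC50, against 312, 224 and 221 FPKM at 0.1 EC50, and its controls at 176, 151 and 189 FPKM were below all 6. The most abundant of those that fell had 745, 606 and 669 FPKM at 0.5 EC50, against 1340, 1694 and 1985 FPKM at 0.1 EC50 (log2 difference -1.30 ± 0.160, SE; limma, adjusted p = 0.00797). It had 1343, 1169 and 1314 FPKM at 0.2 EC50 and 1285, 1330 and 1237 FPKM in the controls, levels that overlapped each other and stood above all 3 libraries of 0.5 EC50. The next in rank that fell had 448, 594 and 624 FPKM at 0.5 EC50, against 918, 1196 and 1431 FPKM at 0.1 EC50, a log2 difference of -1.08 ± 0.195 (SE; limma, adjusted p = 0.0187).

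Few contigs were seen at only 1 of the 2 doses. In all 3 libraries of 0.5 EC50, 42 of the contigs were listed at 0, and in all 3 libraries of 0.1 EC50, 18 were. Contigs at 0 in a whole group passed the filter only through the other group, so their calls are not counted apart here. They were not taken out of the totals above, and the counts that follow are a description. Of the 18 contigs, 11 had at least 1 FPKM in every 0.5 EC50 library, and none of the 42 reached 1 FPKM in every 0.1 EC50 library. The highest of the 42 was listed at 0, 36.9 and 2.26 FPKM at 0.1 EC50, so its level rested on replicate 2. A listed 0 can be a failed estimate, and no fold change is given for these contigs.

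The 0.2 EC50 and control libraries show where the called contigs stood outside the comparison. Among the 2133 contigs called higher, the 0.2 EC50 mean lay between those at 0.5 and 0.1 EC50 in 81.0%, below both in 18.2% and above both in 0.797%. Over all contigs tested, it lay between in 50.6%. It was nearer to 0.5 than to 0.1 EC50 in 16.0% of them, against 42.5% of all contigs tested. Control means were nearer to 0.5 EC50 in 40.9%, against 44.3% of all contigs tested. The most frequent order of means, in 839 contigs or 39.3%, was 0.5 EC50 highest, then control, 0.2 EC50 and 0.1 EC50. This order was not counted over all contigs. Median log2(FPKM + 1) of the 2133 contigs was 2.35, 1.94 and 2.41 in 0.2 EC50 replicates 1, 2 and 3. Replicate 2 had 14015 contigs at 1 FPKM or more, against 17280 and 17446 in replicates 1 and 3. How far the order rests on replicate 2 was not tested. Called contigs, higher or lower, were selected for a wide gap between the 2 doses, which by itself makes a mean between them more frequent.

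For the 294 contigs called lower, the 0.2 EC50 mean lay between the other doses in 84.4%, against 50.6% of all contigs tested. Control means were nearer to 0.5 EC50 in 52.4% and nearer to 0.1 EC50 in the rest. In 93 contigs (31.6%) the means went from 0.1 EC50 as the highest through control and 0.2 EC50 to 0.5 EC50 as the lowest. In 80 contigs (27.2%) control and 0.2 EC50 changed places. These orders were not counted over all contigs. Together the contigs called higher held 10.2% to 10.7% of the summed FPKM in the 0.5 EC50 libraries, against 5.55% to 6.41% at 0.1 EC50. The same contigs held 6.01% to 7.08% at 0.2 EC50 and 7.38% to 8.30% in the controls. Contigs called lower held 1.98% to 2.08% at 0.5 EC50, against 3.26% to 3.78% at 0.1 EC50. The libraries of these 2 doses chose the contigs, so the gaps in share between the doses are a description.

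**Figure D4:**
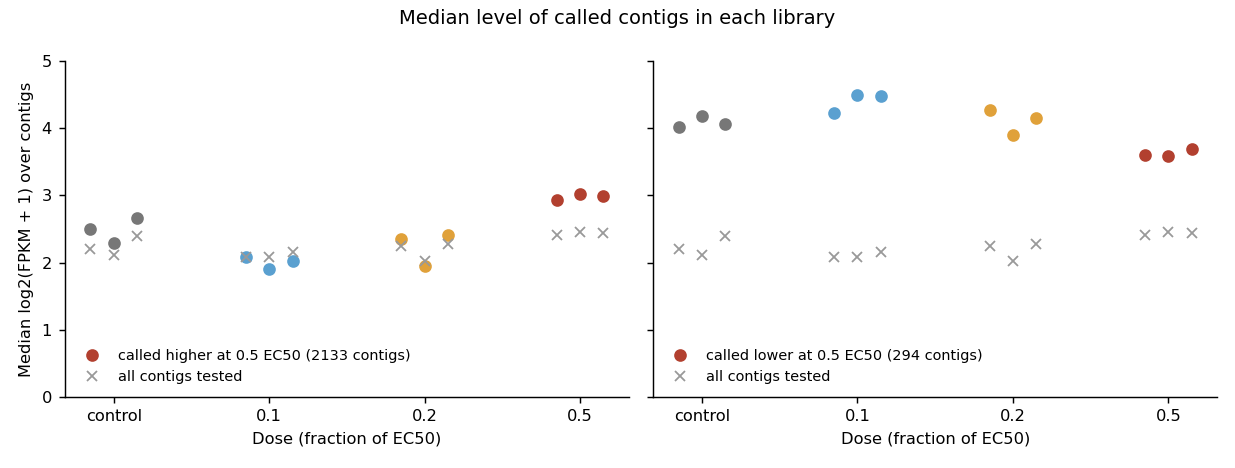
Median log2(FPKM + 1) in each of the 12 libraries (vertical) by dose (horizontal), for contigs called higher (left) or lower (right) at 0.5 than at 0.1 EC50, with grey crosses for all contigs tested. Contigs called higher had medians of 2.93 to 3.01 at 0.5 EC50, against 1.90 to 2.08 at 0.1 EC50, with control libraries between at 2.29 to 2.67. The 0.2 EC50 libraries had medians of 2.35, 1.94 and 2.41. The libraries at 0.5 and 0.1 EC50 chose the contigs, so the gap between them is a description.

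The contrast of 0.2 EC50 with control shares no library with the comparison of the 2 doses, so its libraries did not choose the called contigs. The 2 contrasts need not be independent, as 0.2 EC50 replicate 2 shares its low-value steps with 0.1 EC50 replicates 2 and 3. Of the 15023 contigs that could be tested in both, 771 were higher (5.13%) and 535 lower (3.56%) at 0.2 EC50 than in the control by limma's test. Of the 1925 contigs among them that were higher at 0.5 than at 0.1 EC50, 38 were higher (1.97%) and 239 lower (12.4%) at 0.2 EC50. Their median log2 difference between 0.2 EC50 and control was -0.21, against -0.01 for all contigs tested in both. After median-of-ratios scaling of both comparisons the numbers were 22 higher (2.91%) and 131 lower (17.4%) of 755 contigs, with a median of -0.24 against -0.02 for all. Of the 275 contigs that were lower at 0.5 than at 0.1 EC50, 24 were higher (8.73%) and 10 lower (3.64%) at 0.2 EC50, with a median log2 difference of -0.01. After median-of-ratios scaling these were 77 higher (8.46%) and 20 lower of 910 contigs, with a median of 0.07.

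These counts moved with each library left out. Without 0.2 EC50 replicates 1, 2 and 3 in turn, 29, 112 and 105 of the 1925 contigs were lower at 0.2 EC50 and 1, 24 and 6 were higher. Without control replicates 1, 2 and 3 in turn, 67, 97 and 69 were lower (3.48%, 5.04% and 3.58%), against 0.905%, 1.16% and 0.812% of all. In the same order, 7, 7 and 5 were higher (0.364%, 0.364% and 0.26%), against 1.32%, 1.18% and 0.985% of all. Of the 275 contigs, 24 were higher with all libraries, and 2, 19 and 11 (0.727%, 6.91% and 4.00%) without the 0.2 EC50 replicates in turn. Without the control replicates in turn, 7, 12 and 6 (2.55%, 4.36% and 2.18%) were higher. The shares of all contigs called higher in these fits are those given above. Replicate 2 of 0.2 EC50 shares its low-value steps with 0.1 EC50 replicates 2 and 3. Without it the median of the 1925 contigs was -0.04, against 0.05 for all contigs, and 5.82% were lower, against 1.42% of all. Over the 15023 contigs, the differences of the 2 comparisons had a Pearson correlation of -0.07 and a Spearman correlation of -0.09. Contigs are not independent replicates, and each point shares its libraries with all others.

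The contigs with the largest rises had other values in these libraries, in size classes set after the values were seen. Among contigs called higher with a log2 difference of 2 or more between 0.5 and 0.1 EC50, 28 of 31 could be tested, and 10 (35.7%) were higher and 0 lower at 0.2 EC50 than in the control. Their median log2 difference between 0.2 EC50 and control was 0.80, and 24 of the 28 were above 0. The count of 10 moved with single libraries. Without 0.2 EC50 replicates 1, 2 and 3 in turn it was 0, 12 and 2, and without control replicates 1, 2 and 3 in turn it was 2, 2 and 1, with 0 lower in each of these limma fits. The median stayed between 0.67 and 1.03 in these 6 fits, and 23 to 26 of the 28 contigs were above 0. In the class of 1 to under 2, 9 of 803 were higher (1.12%) and 104 lower (13%), and in the class under 1, 19 of 1094 were higher (1.74%) and 135 lower (12.3%). The median of the class of 1 to under 2 was -0.23, and its sign rested on single libraries. It was 0.17 without 0.2 EC50 replicate 2, 0.01 without control replicate 3 and between -0.43 and -0.25 without each other library. In the class under 1 it stayed between -0.26 and -0.14 in these fits. A stepwise order of means, with 0.5 EC50 highest, then 0.2 EC50, 0.1 EC50 and control, was found in 16 of the 31 contigs (51.6%), 11.1% of the class of 1 to under 2 and 7.40% of the class under 1, against 9.24% of all contigs tested. The difference between the classes was not tested.

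**Figure D5:**
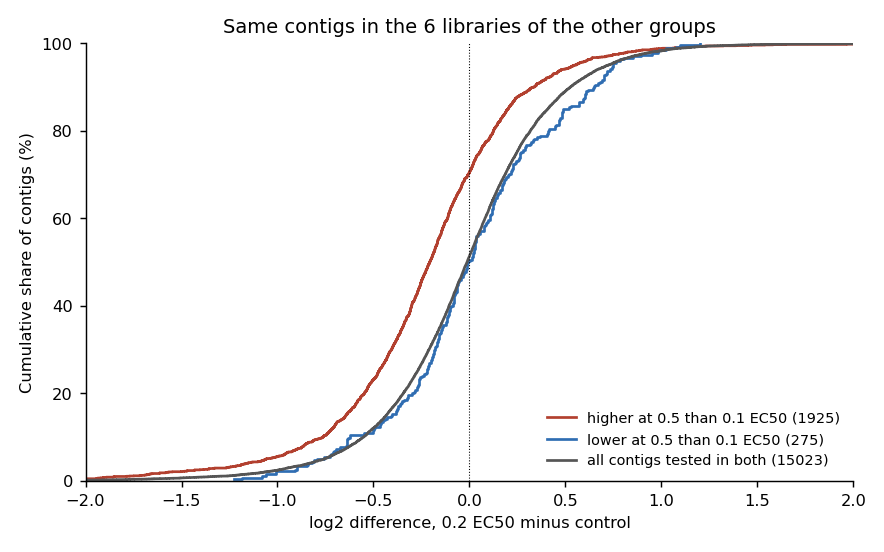
Cumulative share of contigs (%) by their log2 difference between 0.2 EC50 and control, shown from -2 to 2, in 6 libraries that did not enter the comparison of 0.5 with 0.1 EC50. The curve of the 1925 contigs higher at 0.5 EC50 lies left of the curve for all 15023 contigs, with medians of -0.21 and -0.01.

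Contigs of the same Trinity gene, a cluster of related assembled sequences, did not always move together. Of 13595 such genes among the contigs tested, 2978 had several contigs, and 81 of these had 2 or more contigs called. All calls were higher in 57 of the 81 genes, all were lower in 2, and 22 had calls in both directions. Of all 2427 calls, 87.9% were higher. For names that differ only in a last number, 48 had 2 or more calls, of which 35 had all calls higher, 1 had all lower and 12 had both directions. In 1817 such names with 2 contigs tested, 59.4% had differences of the same sign, with a median gap of 0.48 on the log2 scale. As 72.2% of all contigs tested had a difference above 0, many unrelated contigs share a sign too. Agreement beyond that was not tested. Contigs of 1 gene can share reads, so values of single contigs in such genes are uncertain. Summed over Trinity genes, 1606 of 14532 genes were higher and 197 lower at 0.5 EC50.

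The rule kept contigs from a mean of 1 FPKM upward, and 911 of those kept had a mean under 1.1 FPKM. The contig just inside had a mean of 1.0001 FPKM and the contig just outside a mean of 0.9998 FPKM. Of the 12014 contigs left out, 736 were listed at 0 in all 6 libraries.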

How the data were processed

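The authors deposited FPKM values for 29140 contigs in 12 libraries, and that table's name is the source of the unit. Per the labels' protocols, the library kit was Illumina TruSeq RNA. No source used here gives the assembler version, aligner, abundance estimator or filters. FPKM are not counts, so depth is unknown and no counting interval is given.

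Titles gave each sample's dose. The test was limma's moderated test (limma 3.58.1, R 4.3.3) of log2(FPKM + 1), 2-sided, with a prior variance that follows the mean level and Benjamini-Hochberg adjustment over all 17126 contigs. The fit held only the 6 libraries compared, with 4 residual degrees of freedom. A fold change on the log2(FPKM + 1) scale understates the change of low contigs. The contrast of 0.2 EC50 with control was fitted likewise on its own 6 libraries, over contigs averaging 1 FPKM or more in both sets. Median-of-ratios factors came from 15910 contigs above 0 in all 6 libraries. The procedure was tested on simulated data.

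As gene names were lacking, 2 rises and 2 falls, the largest in size, were named. They had to be called in the same direction under 4 scalings, reach a mean of 5 FPKM in the higher group and show no overlap. Contigs given without an identifier were picked by rank after their values were seen. The comparison and lists were chosen with earlier results of these data known.

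Low-value steps came from log2 ratios between libraries, over contigs from 0.01 to 1 FPKM. Clustering gave 3 sets, of 8, 3 and 1 libraries, and the number of sets was chosen with the data known. Deviations from group means of same-numbered libraries at 0.5 and 0.1 EC50 had correlations of 0.12, 0.06 and 0.17 over contigs, so the numbers were not taken to pair the samples. Permutation tests used scipy 1.17.1, and figures used matplotlib 3.10.9 in Python 3.11.15.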

Additional observations from a re-analysis of the deposited data

Results flagged for a closer look

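A direct test between doses picked out 2427 contigs whose levels differed between 0.5 and 0.1 EC50. The difference between the doses equals the difference between their effects against the same controls, so this is a test of unequal differences from control at the 2 doses. The reason was not tested.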

How the results depend on the processing

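The main fit called 2427 contigs between 0.5 and 0.1 EC50 (2133 higher and 294 lower). Each alternative was counted on its own. Without a filter, where more contigs were tested, 1592 were called (1403 and 189). With a minimum mean of 5 FPKM, where fewer were tested, 1454 were called, 1193 of them higher. Quantile normalization gave 1065 (598 and 467), median-of-ratios scaling 857 higher and 940 lower, and library weights 4207 (3659 and 548). Under all 4 scalings together, chosen after seeing the data, 524 were higher. A test against a minimum change of 2-fold gave 16 (16 and 0), with 299 at an unadjusted p under 0.05. Low-value steps as a batch term gave 11 (11 and 0), with 3012 at an unadjusted p under 0.05, and libraries of the largest step set alone gave 51 (42 and 9). In both of these the comparison rests on 0.1 EC50 replicate 1. Leaving out single libraries gave 249 to 2177 in all, 232 to 1859 higher and 17 to 318 lower. With the replicate number as a block, 1843 contigs were called (1536 and 307), and replicate 2 of 0.5 EC50 correlated best with another number. Other pseudocounts, a filter over 12 libraries, an equal total, 1 fit over 4 groups (3345), no prior trend, a robust prior and sums over names or genes kept the total within 1.5 times.

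Between 0.2 EC50 and control, 1306 contigs differed, 866 with the replicate block and 91 to 541 without single libraries. The 38 higher contigs among the 1925 that were higher at 0.5 than 0.1 EC50 (1.97%) became 22 of 755 (2.91%) after median-of-ratios scaling. Without single libraries they were 1 to 24 of the 1925. The 239 lower contigs (12.4% of 1925) became 131 of 755 (17.4%) after median-of-ratios scaling and 120 of 566 (21.2%) after quantile normalization. Over all contigs tested in both, 3.56%, 4.01% and 3.96% were lower in the same order. Without single libraries, 29 to 112 of the 1925 were lower, and the calls over all contigs fell as well. The cause was not tested. The 2616 more contigs at 1 FPKM or more at 0.5 EC50 became 944 after median-of-ratios scaling (exact permutation p = 0.3) and stayed above 0 under the 8 other alternatives run.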

Other observations

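Contig names end in 1, 2, 3 or 4, and no source used here explains this number. Among names ending in 1, 2, 3 and 4, 11.8%, 6.31%, 16.3% and 12.7% of contigs were called higher at 0.5 than at 0.1 EC50. In the same order, 1.72%, 2.87%, 1.16% and 1.59% were called lower. The median log2 differences were 0.25, 0.09, 0.37 and 0.27. Levels differed as well, with medians of the mean FPKM of 3.978, 4.395, 2.686 and 4.983. The part of level in these shares was not tested. After median-of-ratios scaling, 4.65%, 1.72%, 7.18% and 5.03% were higher and 5.64%, 8.68%, 3.31% and 5.68% lower, so names ending in 2 had the lowest and names ending in 3 the highest share of rises under both. The 0.2 EC50 mean was the highest of the 4 groups in 14.4%, 23.2%, 9.82% and 24.3% of contigs with these endings.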
